A study of Homo sapiens with 12 samples.

Results

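The genes described here are CDKN2A, CDKN2B, CDKN2B-AS1 and MTAP, which lie next to each other on the short arm of human chromosome 9. They were taken by name as the listed genes of this locus, and their Ensembl identifiers were matched to symbols: 4 of the 61498 entries of the count tables. All 4 passed the filter on low counts (1 CPM or more in 3 or more libraries, where CPM is the read count scaled to a fixed library size). The tables list many genes that every cell uses at or near 0, so a gene name was read only in chromosome stretches where such genes had the expected reads, and all 4 genes lie in such a stretch (chr9:19375715-37592642, GRCh38).

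CDKN2A encodes p16INK4a and, from an upstream start and another reading frame, p14ARF. p16INK4a and p15INK4b, the product of CDKN2B, bind the cyclin D kinases CDK4 and CDK6 and keep the retinoblastoma protein active, whereas p14ARF binds MDM2 and so stabilises p53. CDKN2B-AS1, also called ANRIL, is a long noncoding RNA read from the opposite strand. MTAP encodes the methionine salvage enzyme that cleaves methylthioadenosine, a by-product of polyamine synthesis, and is often lost together with CDKN2A when tumours delete the locus. The locus is a textbook target of Polycomb silencing through methylation of lysine 27 of histone H3. UTX (gene KDM6A) removes that mark, MLL1 (gene KMT2A) places the opposing methylation of lysine 4, and NRF2 (gene NFE2L2) is the transcription factor of the antioxidant response.

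Total RNA of HaCaT, a spontaneously immortalised human keratinocyte line, was sequenced in 4 derivatives that each express a short hairpin RNA: shControl (labelled WT for genotype), shMLL1, shUTX and shNRF2. Each derivative was sequenced untreated, after 24 h with 100 µM H2O2 and after 24 h with 25 µg/mL CeO2 nanoparticles (CeO2 NPs), with 1 library for each of the 12 combinations. The 3 libraries of a derivative are therefore 3 treatments of the same cells and not separate knockdowns, and the labels do not say whether they came from separate cultures. P-values measure only the spread between these libraries. Hairpin sequences, vector and clonality were not stated in the sources used here. Wherever 3 values of a derivative are given, they stand in the order untreated, H2O2, CeO2 NPs.

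Total counts ran from 5388335 (untreated shUTX) to 7670446 (CeO2 shNRF2), and library scaling factors (TMM) from 0.914, in the untreated shControl library, to 1.05. KMT2A held 228, 565 and 231 counts in shMLL1, against 3283, 3539 and 3396 in shControl. KDM6A held 1, 0 and 1 counts in shUTX against 6, 5 and 6, and NFE2L2 held 0 in all 3 shNRF2 libraries against 1, 12 and 16. The drops were not specific to the matching hairpin for 2 of the 3 genes: in shMLL1 the NFE2L2 counts were 1, 1 and 3, and in shUTX they were 1, 1 and 4, and KMT2A held 1711, 1969 and 1897 counts in shUTX (log2 difference from shControl -0.59 ± 0.21, adjusted p = 0.0520, edgeR). Those 3 genes lie outside the stretches where names and reads match, so their counts check the labels only in part. Of 18 keratinocyte markers, 2 lie inside these stretches, AQP3 (mean 271 CPM) and TINCR (mean 32.6 CPM), and both were detected. They moved with the derivatives: against shControl TINCR was 3.82-fold higher in shMLL1, 5.74-fold in shUTX and 10.2-fold in shNRF2, and AQP3 1.56-fold higher in shNRF2, all past the edgeR threshold, and their part in the results below was not tested. No fibroblast, melanocyte or immune marker lies inside them, so other cell types could not be looked for by name.

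In GENCODE 29 (GRCh38) MTAP spans chr9:21802543-21937651 on the plus strand, CDKN2A chr9:21967753-21995301 on the minus strand, CDKN2B-AS1 chr9:21994778-22121097 on the plus strand and CDKN2B chr9:22002903-22009363 on the minus strand. CDKN2B lies wholly inside CDKN2B-AS1, but in an intron, and their exons share 0 bases. CDKN2A and CDKN2B-AS1 share 341 exon bases where their starts face each other. The sources used here do not say whether counting used strand, so reads from those bases could not be assigned, and the CDKN2B-AS1 values are uncertain. A read-through gene that joins MTAP to CDKN2B-AS1 held 0 counts in every library. On the same strand it shares 460 exon bases with MTAP and 475 with CDKN2B-AS1. How reads in shared bases were counted was not stated, so that 0 does not show that read-through RNA was absent.

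CDKN2A and CDKN2B are related genes with similar coding sequence, so reads from similar stretches may have been split between them or dropped, and read length was not stated in the sources used here.

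The promoters of the 3 coding genes are shown next, with their CG dinucleotides marked, so that the sequence before each start can be read beside the levels. Binding and methylation were not measured. Each is the 250 bases before a start (RefSeq, GRCh38.p14), read 5′ to 3′ on the gene's strand, with CG dinucleotides in capitals: CDKN2B (chr9:22009306-22009555, minus strand), the downstream CDKN2A start that gives p16INK4a (chr9:21974858-21975107, minus strand) and MTAP (chr9:21802386-21802635, plus strand).
CDKN2B promoter: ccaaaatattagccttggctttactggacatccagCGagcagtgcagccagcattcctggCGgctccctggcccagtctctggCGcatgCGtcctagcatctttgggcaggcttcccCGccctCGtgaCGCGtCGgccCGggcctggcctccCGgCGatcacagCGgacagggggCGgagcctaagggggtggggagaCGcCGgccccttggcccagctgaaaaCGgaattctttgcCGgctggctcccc
CDKN2A promoter of p16INK4a: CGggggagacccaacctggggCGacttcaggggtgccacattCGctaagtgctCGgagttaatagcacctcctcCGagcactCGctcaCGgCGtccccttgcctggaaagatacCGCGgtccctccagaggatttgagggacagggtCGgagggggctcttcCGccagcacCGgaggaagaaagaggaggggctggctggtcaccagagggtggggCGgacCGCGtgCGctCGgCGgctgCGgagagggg
MTAP promoter: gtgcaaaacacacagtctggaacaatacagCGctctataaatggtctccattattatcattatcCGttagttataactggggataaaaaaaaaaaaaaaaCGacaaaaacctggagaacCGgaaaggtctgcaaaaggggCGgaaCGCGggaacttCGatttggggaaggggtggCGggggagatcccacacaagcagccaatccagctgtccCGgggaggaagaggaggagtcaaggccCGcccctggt
The CDKN2B window holds 18 CG dinucleotides and the p16INK4a window 20, against 11 in MTAP, which is also the median of 35116 such windows. The window before the p14ARF start (chr9:21995325-21995574) holds 24 and the CDKN2B-AS1 window (chr9:21994541-21994790) 31. Among all windows, 36.8% hold at least as many as CDKN2B, 32.4% as many as p16INK4a, 23.7% as many as p14ARF, 50.3% as many as MTAP and 10.9% as many as CDKN2B-AS1. The GC box GGGCGG, searched on both strands, was found 2 times each in the CDKN2B, MTAP and CDKN2B-AS1 windows, 1 time in the p16INK4a window and 0 times before p14ARF, and is in 42.6% of all windows. The core of the antioxidant response element, TGACNNNGC on either strand, was in none of the 5 windows and in 10.9% of all. These are matches of letters and not measured binding.

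Per kilobase of annotated exon, CDKN2A had the highest level of the 4 genes, at 44.6 ± 10.9 CPM per kilobase (mean ± SD, n = 12 libraries). MTAP and CDKN2B followed at 21.2 ± 4.15 and 21.2 ± 10.3, and did not differ beyond their spread. CDKN2B-AS1 was lowest, at 1.24 ± 0.269. Per base of the longest annotated transcript the order became CDKN2A, MTAP, CDKN2B, CDKN2B-AS1, at 150.5, 41.0, 21.99 and 2.60 CPM per kilobase. CDKN2A counts sum p16INK4a and p14ARF transcripts, which a count per gene does not separate. All later values are TMM-scaled CPM of 1 gene across libraries.

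**Figure D1:**
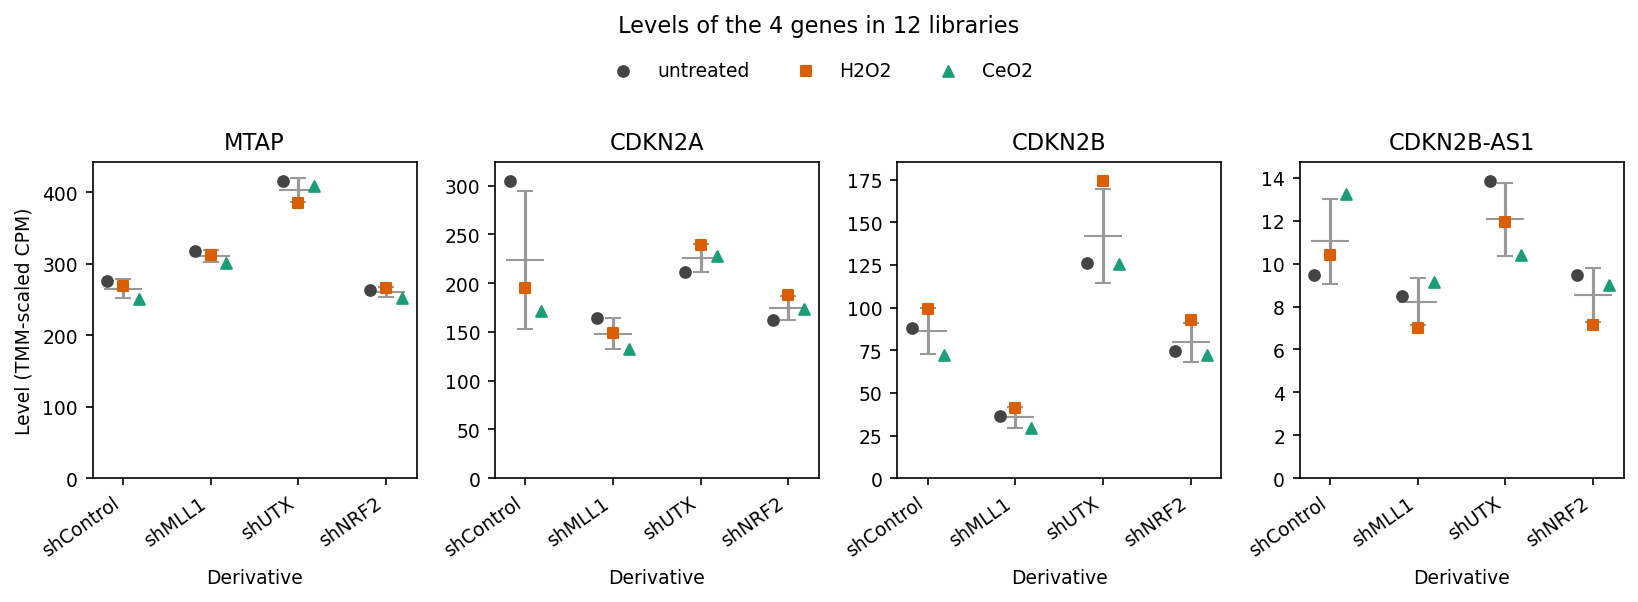
TMM-scaled CPM (y axis, from 0, a separate scale for each gene) of MTAP, CDKN2A, CDKN2B and CDKN2B-AS1 in the 12 libraries by derivative (x axis); symbols are treatments, grey lines the mean ± SD of the 3 libraries of a derivative. CDKN2B is lowest in all 3 shMLL1 libraries (29.2 to 41.0 CPM) and highest in shUTX (126 to 174 CPM), and the untreated shControl library has the highest CDKN2A value (304 CPM).

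CDKN2B, the p15INK4b gene, fell in the shMLL1 derivative and rose in shUTX. Its level was 88.2, 99.2 and 72.1 CPM in shControl and 36.8, 41.0 and 29.2 CPM in shMLL1. It was 126, 174 and 126 CPM in shUTX and 74.4, 92.9 and 72.1 CPM in shNRF2. The shMLL1, shControl and shUTX libraries formed 3 groups with no overlap, and shNRF2 overlapped shControl. Means ± SD (n = 3 libraries) were 86.5 ± 13.6 CPM in shControl, 35.7 ± 5.98 in shMLL1, 142 ± 27.8 in shUTX and 79.8 ± 11.4 in shNRF2. In a bulk sample, fewer cells making a transcript and less transcript per cell cannot be told apart.

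Against shControl, CDKN2B was 2.42-fold lower in shMLL1 (log2 difference -1.28 ± 0.10 SE, adjusted p = 1.04e-06, edgeR quasi-likelihood test over 10800 entries with Benjamini-Hochberg adjustment). It was 1.64-fold higher in shUTX (0.71 ± 0.09, adjusted p = 6.46e-05, edgeR). In shNRF2 the difference was -0.11 ± 0.09 and did not pass the test (adjusted p = 0.532, edgeR). Directly compared, CDKN2B was 3.97-fold higher in shUTX than in shMLL1 (1.99 ± 0.10, adjusted p = 1.61e-08, edgeR). It was also 2.24-fold higher in shNRF2 than in shMLL1 (1.16 ± 0.10) and 1.77-fold lower in shNRF2 than in shUTX (-0.83 ± 0.09), both past the edgeR threshold. These 5 calls held under every scaling, filter, tool and left-out library that was run.

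The share of all entries called gives the background of these counts. In shMLL1 against shControl 2 of the 4 genes fell and 0 rose, where 6.84% of all entries tested fell and 5.38% rose. In shUTX against shControl 2 of 4 rose and 0 fell (12.6% and 13.7% of entries), and in shNRF2 against shControl 0 of 4 rose or fell (2.78% and 2.56% of entries). In shUTX against shMLL1 3 of 4 were higher and 0 lower (8.5% and 9.46% of entries). In shNRF2 against shMLL1 1 was higher and 1 lower (6.67% and 4.62%), and in shNRF2 against shUTX 0 were higher and 2 lower (12.7% and 10.7%). Among the 428 entries tested in the stretches where names and reads match, which include the 4 genes, calls in either direction were more frequent: 28.7%, 40.9% and 9.81% in shMLL1, shUTX and shNRF2 against shControl, 38.3% in shUTX against shMLL1, 28% in shNRF2 against shMLL1 and 39% in shNRF2 against shUTX. The members' counts are to be read against those shares. The counts of called entries also moved with single libraries. The 1320 calls of shMLL1 against shControl became 667 without the CeO2 shMLL1 library and 1941 without the untreated shControl library, and the 576 of shNRF2 became 257 without the H2O2 shNRF2 library and 830 without the CeO2 shControl library. The 2842 of shUTX ran from 1931 to 3088. The 1940 of shUTX against shMLL1 ran from 1169 to 2989, the 1219 of shNRF2 against shMLL1 from 598 to 2251 and the 2529 of shNRF2 against shUTX from 1652 to 3604.
All 3 libraries of shMLL1 lay below all 3 of shControl for 12.1% of entries, and all 3 of shUTX above all 3 of shControl for 17.3%. The comparisons with shControl share its libraries.

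**Figure D2:**
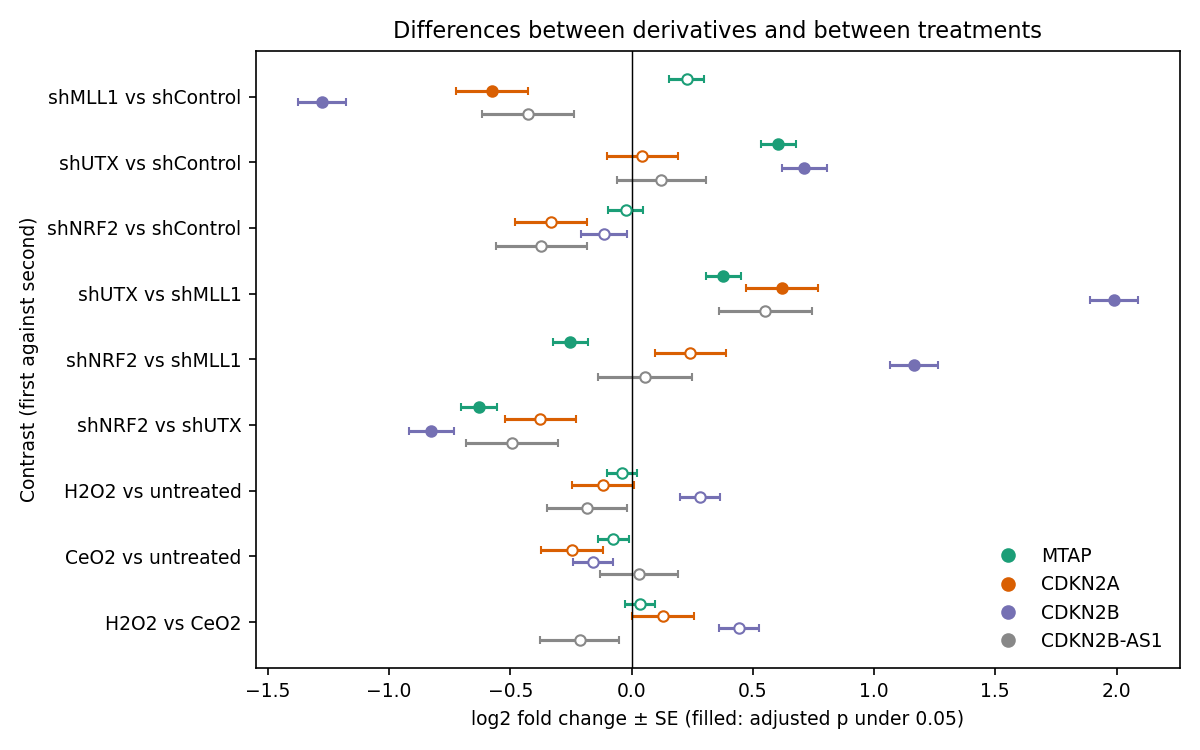
Log2 difference (with SE) for the 4 genes in the 6 comparisons of derivatives and in the comparisons of treatments, from the additive edgeR fit over 12 libraries. CDKN2B spans -1.28 (shMLL1 against shControl) to 1.99 (shUTX against shMLL1), while no difference of CDKN2B-AS1 passed the threshold.

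CDKN2A fell in shMLL1, by less than CDKN2B, and the size of that fall rests on the untreated shControl library. Its level was 304, 194.5 and 172 CPM in shControl and 164, 149 and 132 CPM in shMLL1. It was 211, 239 and 228 CPM in shUTX and 162, 187 and 173 CPM in shNRF2. All 3 shMLL1 libraries lay below all 3 shControl libraries, while shUTX and shNRF2 overlapped shControl. The SD within shControl was 70.9 CPM (mean 224, n = 3), against 12.6 to 15.9 CPM within the other derivatives.

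Against shControl, CDKN2A was 1.49-fold lower in shMLL1 (log2 difference -0.58 ± 0.15, adjusted p = 0.0187, edgeR). Without the untreated shControl library the difference was -0.31 ± 0.09, 1.24-fold (adjusted p = 0.0184, edgeR). Leaving out the untreated, H2O2 or CeO2 shMLL1 library gave adjusted p-values of 0.0773, 0.0808 and 0.0958, past the threshold in no case. In shUTX the difference from shControl was 0.04 ± 0.15 (adjusted p = 0.861, edgeR), and without the untreated shControl library it was 0.30 (adjusted p = 0.0112). In shNRF2 it was -0.33 ± 0.15 (adjusted p = 0.222, edgeR). Between the 2 knockdowns, CDKN2A was 1.54-fold higher in shUTX than in shMLL1 (0.62 ± 0.15, adjusted p = 0.00896, edgeR), with all 3 shUTX libraries above all 3 of shMLL1 as for 18.8% of entries. That call was lost without the CeO2 shMLL1 library (adjusted p = 0.0516), the H2O2 shUTX library (0.0566) or the CeO2 shUTX library (0.0635).

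CDKN2B-AS1, the antisense RNA, was the lowest of the 4, with 41 to 95 counts per library, and none of its comparisons passed the threshold. Its level was 9.45, 10.4 and 13.3 CPM in shControl and 8.51, 7.01 and 9.14 CPM in shMLL1. It was 13.8, 11.95 and 10.4 CPM in shUTX and 9.49, 7.12 and 9.02 CPM in shNRF2. The shMLL1 libraries lay below those of shControl by a narrow margin, 9.14 against 9.45 CPM. The log2 difference of shMLL1 from shControl was -0.43 ± 0.19 (adjusted p = 0.167, edgeR), and it passed the threshold when the untreated shControl library was left out (-0.61, adjusted p = 0.0333). For shUTX against shMLL1 it was 0.55 ± 0.19 (adjusted p = 0.0606, edgeR). That difference was called in a fit of only the 6 libraries compared (0.54, adjusted p = 0.0362, edgeR).

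MTAP rose in shUTX and was steadier across treatments than the kinase inhibitor genes. Its level was 276, 270 and 250 CPM in shControl and 318, 313 and 301 CPM in shMLL1. It was 415, 385 and 409 CPM in shUTX and 264, 266 and 253 CPM in shNRF2. Each derivative kept within a narrow band (SD 7.15 to 16.3 CPM), with shUTX above all other libraries, shMLL1 next, and shNRF2 overlapping shControl. Such separation was common. All 3 shUTX libraries lay above all 3 of shControl for 17.3% of entries and above all 3 of shMLL1 for 18.8%. All 3 shNRF2 libraries lay below all 3 of shUTX for 22.1% and below all 3 of shMLL1 for 15.7%.

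Against shControl, MTAP was 1.52-fold higher in shUTX (log2 difference 0.60 ± 0.07, adjusted p = 3.26e-05, edgeR), and this call held under every alternative run. In shMLL1, where CDKN2B and CDKN2A were lower, MTAP was 1.17-fold higher without passing the threshold (0.23 ± 0.07, adjusted p = 0.0545, edgeR), although all 3 shMLL1 libraries lay above all 3 of shControl, as for 12% of entries. In shNRF2 its difference was -0.02 ± 0.07 (adjusted p = 0.890, edgeR). MTAP was 1.30-fold higher in shUTX than in shMLL1 (0.38 ± 0.07, adjusted p = 0.00197, edgeR) and 1.55-fold lower in shNRF2 than in shUTX (-0.63 ± 0.07, adjusted p = 2.50e-05, edgeR). It was 1.19-fold lower in shNRF2 than in shMLL1 (-0.25 ± 0.07, adjusted p = 0.0358, edgeR), a call lost on leaving out any of 8 of the 12 libraries in turn.

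Counts of 2 genes in the same library can be compared with no library scaling, and such ratios repeated the separations above only in part. Per MTAP read there were 0.319, 0.368 and 0.288 CDKN2B reads in shControl, and 0.116, 0.131 and 0.0971 in shMLL1. The shMLL1 ratios were the lowest of all 12 libraries, and how often ratios of other gene pairs separate a derivative was not computed. In shUTX the ratios were 0.303, 0.452 and 0.307 and overlapped those of shControl, since both genes were higher there.
Per CDKN2B read there were 4.45, 3.63 and 4.52 CDKN2A reads in shMLL1, and 1.67, 1.37 and 1.81 in shUTX. In shControl the same ratio was 3.45, 1.96 and 2.38, and in shNRF2 2.18, 2.02 and 2.40. All 3 shMLL1 ratios exceed, and all 3 shUTX ratios lie under, those of the other derivatives. The share of other gene pairs that do so was not computed either, so this separation is description only. Per CDKN2B read there were 0.231, 0.171 and 0.313 CDKN2B-AS1 reads in shMLL1, and between 0.0687 and 0.184 in the other derivatives, so the groups overlapped.

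Neither exposure changed any of the 4 genes past the threshold across derivatives. For H2O2 against untreated 0 of 4 passed (0% of entries called by edgeR, 19.5%, or 2102 entries, at an unadjusted p under 0.05, and 152 called by DESeq2, none of them a member). For CeO2 NPs against untreated 0 of 4 passed (0.0185% called) and 0 had an unadjusted p under 0.05 (17.5% of entries), and for H2O2 against CeO2 NPs 0 of 4 passed (0.037% called) and 1, CDKN2B, had an unadjusted p under 0.05 (6.2% of entries). Leaving out 1 library at a time gave 0 to 43, 0 to 29 and 0 to 94 called entries in these 3 comparisons, in place of 0, 2 and 4. CDKN2B came nearest. It was higher after H2O2 than untreated in 4 of 4 derivatives, with ratios of 1.13 in shControl, 1.116 in shMLL1, 1.38 in shUTX and 1.25 in shNRF2. A rise in all 4 derivatives was seen for 13.2% of entries, and the log2 difference was 0.28 ± 0.08 (unadjusted p = 0.00365, adjusted p = 0.141, edgeR).

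After CeO2 NPs the CDKN2B ratio to untreated was 0.818 (95% interval 0.725 to 0.923) in shControl, 0.795 (0.656 to 0.961) in shMLL1, 0.999 (0.899 to 1.11) in shUTX and 0.969 (0.859 to 1.09) in shNRF2. These intervals are exact, compare 2 libraries and cover counting error only. The difference over derivatives was -0.16 ± 0.08 (adjusted p = 0.325, edgeR). Between the exposures CDKN2B was 1.36-fold higher with H2O2 than with CeO2 NPs, again in 4 of 4 derivatives, as for 9.73% of entries. The log2 difference was 0.44 ± 0.08 with an adjusted p of 0.0675 by edgeR, and it was called by DESeq2 (adjusted p = 0.0194), with no filter on low counts (0.00761) and in a fit of only the 8 libraries compared (0.00105).

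For CDKN2A, exposed and untreated libraries differed by derivative. In shControl the ratio to untreated was 0.639 (0.597 to 0.684) after H2O2 and 0.564 (0.525 to 0.606) after CeO2 NPs. In shMLL1 it was 0.910 (0.832 to 0.995) and 0.806 (0.737 to 0.881). In shUTX it was 1.13 (1.05 to 1.23) and 1.082 (0.999 to 1.17), and in shNRF2 1.15 (1.06 to 1.25) and 1.07 (0.985 to 1.15). Thus both exposed libraries lay below the untreated one in shControl and shMLL1 and above it in shUTX and shNRF2. Both exposed libraries lay below the untreated one for 39.5% of all entries in shControl and 37.4% in shMLL1, and above it for 32.5% in shUTX and 32.6% in shNRF2.

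The response of CDKN2A to either exposure differed from that in shControl by a log2 value of 0.88 ± 0.13 in shUTX (adjusted p = 0.000234) and 0.89 ± 0.13 in shNRF2 (adjusted p = 0.000172), from an exploratory edgeR fit with 3 residual degrees of freedom. Each untreated library is matched exactly by that fit. Its SEs and p-values therefore measure spread among exposed libraries only, and none between untreated libraries. In that fit 14.4% and 16.6% of all entries were called, so a call was common, and these counts, 1554 and 1794, ran from 822 to 2102 and from 1317 to 2327 when 1 exposed library was left out. In shMLL1 the difference was 0.51 ± 0.13 (adjusted p = 0.0610), where 0.648% of entries (70) were called and 0 of 4 members. Leaving out the H2O2 library of shMLL1 took that count to 4 and leaving out the H2O2 library of shControl to 676. The CDKN2A difference in shMLL1 gained a call in 2 of the 8 fits that left out 1 exposed library, with values of 0.48 to 0.55. Of the other 3 genes none was called in any of these contrasts. All 3 contrasts rest on the single untreated shControl library, the one with the lowest scaling factor. With plain totals in place of TMM the CDKN2A ratios in shControl became 0.715 and 0.645. Free of any scaling, CDKN2A reads per MTAP read were 1.10 in that library and 0.721 and 0.687 in the exposed shControl libraries. The part of that library in the result was not tested further, since no other untreated shControl library was analysed here.

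MTAP ratios of exposed to untreated libraries stayed between 0.906 and 1.01 in the 8 pairs. With plain totals its 2 ratios in shControl turned from 0.977 and 0.906 to 1.09 and 1.04. Those of CDKN2B-AS1 ran from 0.750 to 1.40, and all but the CeO2 pair of shControl (1.40, 1.01 to 1.97) had intervals that include 1.

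**Figure D3:**
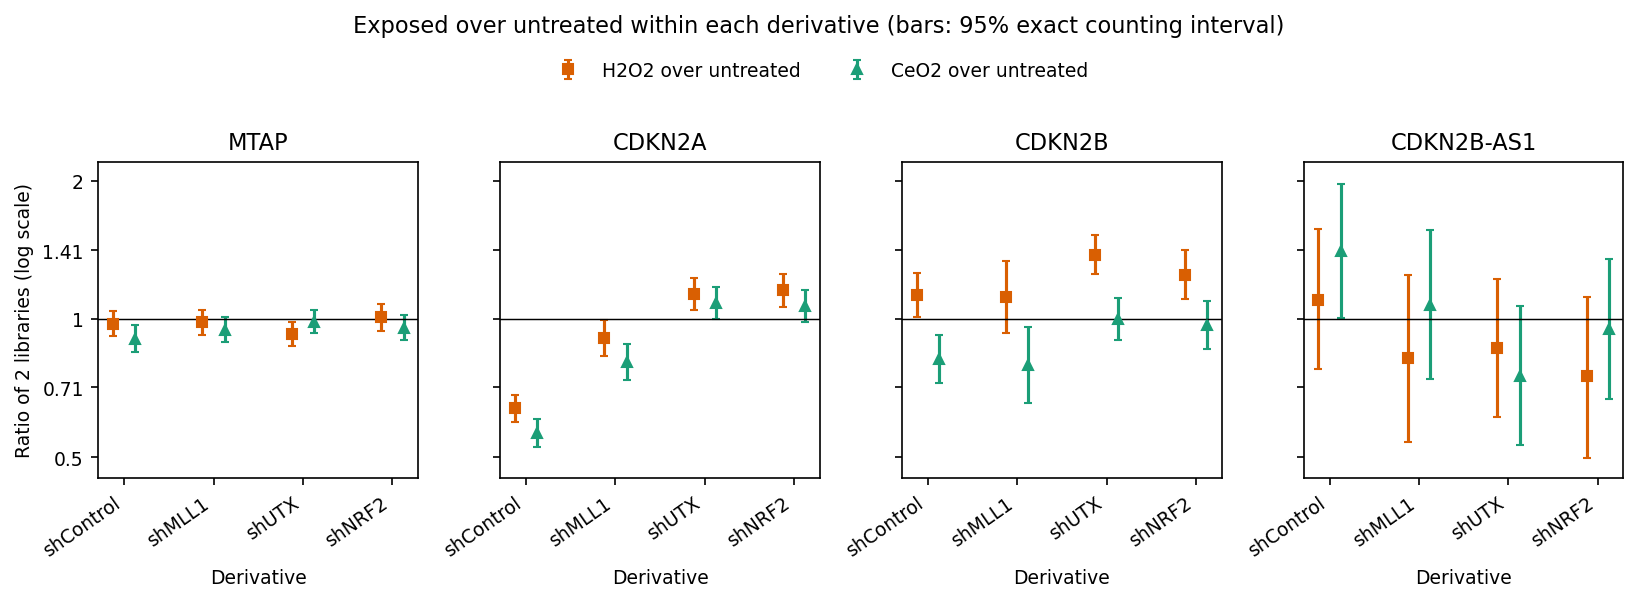
Ratio of each exposed library to the untreated library of the same derivative (y axis, log scale; bars are 95% exact counting intervals) for the 4 genes. CDKN2A lies at 0.639 and 0.564 in shControl and above 1 in shUTX and shNRF2. The H2O2 ratio of CDKN2B is above 1 in all 4 derivatives, with an interval that includes 1 in shMLL1.

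The genes around the locus were read for context. Within 2 megabases on either side lie 77 other entries, of which 11 passed the filter: the coding genes MLLT3, FOCAD, HACD4, KLHL9, IFNE, DMRTA1 and ELAVL2, the noncoding MIR31HG, the pseudogene CLIC4P1 and 2 unnamed entries inside MTAP. The type I interferon genes on the MTAP side of HACD4 had few reads or none: 14 of the 16 coding genes held 0 counts in every library, IFNB1 reached 1 count and IFNE 11. A count of 0 allows up to 3 counts per library.

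In shMLL1 against shControl DMRTA1, a transcription factor gene beyond CDKN2B-AS1, rose by 0.81 ± 0.24 (log2, adjusted p = 0.0365, edgeR), and HACD4, a fatty acid elongation enzyme gene, by 0.32 ± 0.09 (adjusted p = 0.0364). None of the 11 neighbours was called lower there, although some had a negative log2 difference. In shUTX against shControl FOCAD rose by 0.29 ± 0.08 and KLHL9, a ubiquitin ligase adaptor gene, by 0.27 ± 0.09, while MIR31HG, the host transcript of miR-31, fell by 0.70 on the log2 scale and HACD4 by 0.28 (edgeR adjusted p = 0.0202, 0.0344, 0.00139 and 0.0463). In shNRF2 against shControl ELAVL2, a neuronal RNA-binding protein gene, fell by 0.53 and HACD4 rose by 0.36 (adjusted p = 0.00792 and 0.0377, edgeR). Among the neighbours called against shControl, none changed by as much as CDKN2B did in shMLL1.

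Over the 96 other entries tested in the matched stretch of chromosome 9, the median log2 difference was 0.05 in shMLL1 and 0.03 in shUTX against shControl, and over all 10800 entries it was 0.0076 and 5.47e-05. In shUTX 21 of the 96 were called higher and 26 lower (21.9% and 27.1%), against 12.6% and 13.7% of all entries, and in shMLL1 10 were called higher and 8 lower.

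**Figure D4:**
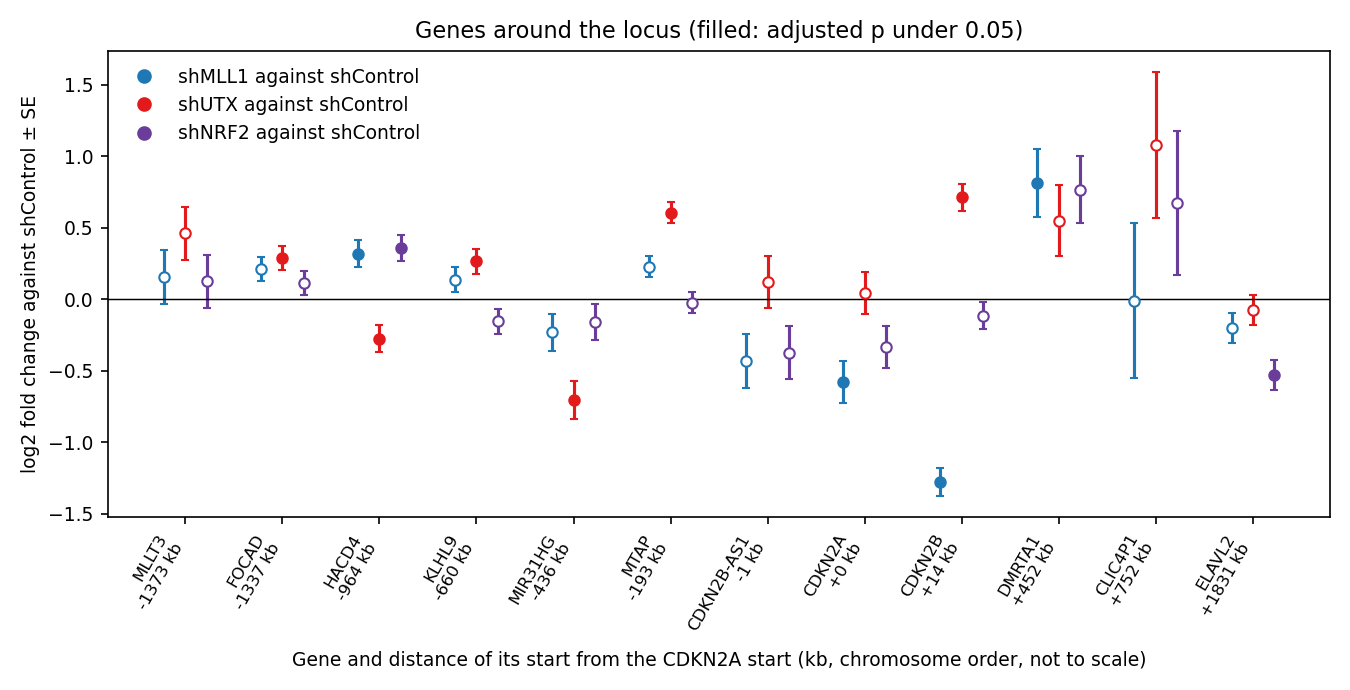
Log2 difference from shControl (y axis, with SE) for the members and the neighbours with a mean of at least 3 CPM, in chromosome order (x axis, not to scale, labelled with the distance in kilobases of each start from that of CDKN2A). Filled points passed the threshold. CDKN2B, 14.1 kilobases from CDKN2A, has the lowest value plotted in shMLL1 (-1.28), and in shUTX (0.71) it is the highest of the 4 members.

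The genes on which these inhibitors act could hardly be read. Of the lists for cyclin D, CDK4/6 and RB (20 genes), for ARF, MDM2 and p53 (10 genes), for methionine salvage and polyamines (15 genes) and for regulators of the INK4 genes (25 genes), 0 members lie in a stretch where names and reads match. Of 20 proliferation genes 1 does, UHRF1, a chromatin factor of DNA replication (mean 695 CPM). UHRF1 passed the test in none of the 3 comparisons with shControl, with log2 differences of 0.20 ± 0.08 in shMLL1, 0.21 ± 0.08 in shUTX and 0.15 ± 0.08 in shNRF2 (edgeR adjusted p = 0.130, 0.0692 and 0.307). Whether cell-cycle genes moved with CDKN2A or CDKN2B was therefore not tested.

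Among the 4 genes, CDKN2A and CDKN2B had the closest patterns over the 12 libraries (Pearson r of log2(CPM + 1) 0.77), and MTAP and CDKN2A the least close (0.12). The libraries fall into 4 derivatives and share their treatments, so these values describe 12 points that are not independent. Of 343 other entries with matching names and a mean of at least 5 CPM, those most like CDKN2B were TRIP13 (0.95), a mitotic checkpoint ATPase gene, LPCAT1 (0.94), BRD9, GOLPH3 and CLPTM1L, all on the short arm of chromosome 5. Most like MTAP were PLAA (0.94), TOMM5 (0.94), HSPD1P1, DNAJA1 and GNE, of which all but the pseudogene HSPD1P1 lie on chromosome 9. CDKN2A was most like IRX2 (0.87), MAP2K2 (0.86), SUB1, CLPTM1L and ATPSCKMT. CDKN2B-AS1 was most like TRIO (0.75), with RAI14, CEP72, TENT4A and BRD9 next. These entries, and those most like CDKN2A other than MAP2K2, also lie on the short arm of chromosome 5. The stretches on chromosomes 5 and 9 hold 652 and 357 of the 1347 entries with matching names, most of which did not enter this search. The chromosomes of the 343 entries searched were not counted. Whether the chromosomes of the entries named here are more frequent than in the search was therefore not tested.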

How the data were processed

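Total RNA was sequenced with the TruSeq RNA-seq kit, per the labels' protocols. The authors deposited raw read counts per Ensembl gene in 2 tables that both hold the untreated libraries, here read from the H2O2 table, whose untreated counts differ from the other table's in 1 cell. Trimmomatic 0.39, HISAT2 2.2.1, SAMtools 1.12, HTSeq 0.11.1 and GRCh38 are named in the submitters' processing notes; their settings, the use of strand and the annotation release were not stated in the sources used here. Of 61498 entries, 61490 matched a symbol and 58298 GENCODE 29.

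Stretches were drawn from a panel of 528 genes that every cell uses, with a hidden Markov model of 2 states. In it a gene at 30 CPM or more has probability 0.95 inside and 0.25 outside a stretch (switch 0.02). A stretch needed 3 or more panel genes, at a median of 150 CPM or more. The 4 stretches and the mitochondrial genome hold 1347 entries. Inside, 25 of 25 panel genes were at 30 CPM or more, and outside 79 of 503. That contrast follows from how the stretches were drawn and is no check of the names. The stretch of chromosome 9 rests on 4 panel genes. Other coding entries, which were not used to draw the stretches, reached 1 CPM for 67.2% of 451 inside and 33.1% of 18874 outside.

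The 10800 entries at 1 CPM or more in 3 or more libraries were fitted with edgeR 4.0.16 (TMM, quasi-likelihood, two-sided, Benjamini-Hochberg threshold 0.05, R 4.3.3) with terms for derivative and treatment (6 residual degrees of freedom). A further model let the response to either exposure differ by derivative. The SE of a log2 difference is its size divided by the square root of F. DESeq2 1.42.0 and limma-voom 3.58.1, other scalings, filters and sets of libraries were alternatives. Ratios of 2 libraries have exact conditional binomial 95% intervals, which cover counting error only.

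The members, lists and rules were chosen with earlier results of these data known. All 4 members are described whatever their values. Neighbours are named where they pass the filter, and the 5 entries with the highest Pearson r are named for likeness. Of the lists, members with matching names are given. The leave-out of exposed libraries in the further model and a length of unshared exon bases were added after seeing the data.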

Additional observations from a re-analysis of the deposited data

Results flagged for a closer look

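The response of CDKN2A to either exposure, relative to that in shControl, differed by a log2 value of 0.88 in shUTX and 0.89 in shNRF2, by a test of the difference itself in the exploratory edgeR fit (adjusted p = 0.000234 and 0.000172). Both values use the same single untreated shControl library, and the p-values hold no spread between untreated libraries. With each of the 8 exposed libraries left out in turn, the log2 values were 0.85 to 0.94 in shUTX and 0.86 to 0.92 in shNRF2. Every one of those fits kept the untreated shControl library, so they could not test its part in the result. Without the untreated shControl library the contrast has no value.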

How the results depend on the processing

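Values below are log2 differences unless a unit is given. The CDKN2B calls in 5 comparisons of derivatives and the MTAP calls of shUTX against shControl, shMLL1 and shNRF2 kept direction and threshold under RLE and upper-quartile scaling, both filters, DESeq2, limma-voom, a fit of only the libraries compared, the other table's untreated counts, no treatment term and each left-out library. With no filter beyond a count above 0, CDKN2A passed in shNRF2 against shControl (-0.33, adjusted p = 0.0340, edgeR) and against shUTX (-0.36), CDKN2B passed in H2O2 against CeO2 NPs (0.44), and MTAP in shNRF2 against shMLL1 did not (-0.23). With DESeq2 that CDKN2B difference passed too (0.44). Fitted on only the libraries compared, CDKN2B-AS1 passed in shUTX against shMLL1 (0.54) and shNRF2 against shUTX (-0.48), CDKN2A in shNRF2 against shUTX (-0.37) and CDKN2B in H2O2 against CeO2 NPs (0.44). With no treatment term MTAP in shNRF2 against shMLL1 was -0.25 and did not pass. Per longest transcript, levels were 41.0 (MTAP), 150.5 (CDKN2A) and 2.60 (CDKN2B-AS1) CPM per kilobase. The cause of these changes was not tested. Plain totals moved 6 within-shControl ratios, among them CDKN2B to 1.26 (H2O2) and 0.935 (CeO2 NPs).

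Leaving out each library in turn gave these lowest and highest values for results whose call or direction changed. In shMLL1 against shControl: MTAP 0.20 to 0.24, CDKN2A -0.72 to -0.31, CDKN2B-AS1 -0.61 to -0.29. In shUTX against shControl: CDKN2A -0.10 to 0.30, CDKN2B-AS1 -0.058 to 0.30. In shUTX against shMLL1: CDKN2A 0.53 to 0.76, CDKN2B-AS1 0.45 to 0.74. In shNRF2 against shMLL1: MTAP -0.27 to -0.24, CDKN2A 0.16 to 0.38, CDKN2B-AS1 -0.018 to 0.12. In shNRF2 against shUTX: CDKN2A -0.51 to -0.24, CDKN2B-AS1 -0.69 to -0.39. CDKN2A in H2O2 against untreated ran from -0.24 to 0.080, CDKN2B-AS1 in CeO2 NPs against untreated from -0.11 to 0.16, and CDKN2B in H2O2 against CeO2 NPs from 0.40 to 0.48. For the response to either exposure against shControl, leaving out exposed libraries gave, in shMLL1, MTAP -0.0098 to 0.090, CDKN2A 0.48 to 0.55 and CDKN2B -0.055 to 0.0014, and in shUTX MTAP -0.048 to 0.12.

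Without the untreated shControl library the CDKN2A differences in H2O2 against untreated (0.080) and CDKN2B-AS1 in shUTX against shControl (-0.058) and CeO2 NPs against untreated (-0.11) changed sign, and 8 results gained a call: MTAP and CDKN2B-AS1 in shMLL1 against shControl, CDKN2A in shUTX against shControl, in shNRF2 against shMLL1 and in shNRF2 against shUTX, CDKN2B-AS1 in shUTX against shMLL1 and in shNRF2 against shUTX, and CDKN2B in H2O2 against CeO2 NPs. The CDKN2A difference of shUTX from shControl was -0.075 and -0.10 without the H2O2 or CeO2 shControl library and -0.020 and -0.063 without the H2O2 or CeO2 shUTX library. CDKN2B-AS1 in CeO2 NPs against untreated was -0.076 without the CeO2 shControl and -0.0063 without the CeO2 shMLL1 library, and in shNRF2 against shMLL1 -0.018 without the untreated shNRF2 library. The MTAP response was -0.0098 (shMLL1) and -0.024 (shUTX) without the CeO2 shControl library and -0.048 (shUTX) without the CeO2 shUTX library, and that of CDKN2B in shMLL1 was 0.0014 without the CeO2 shMLL1 library.

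Over all entries, H2O2 against untreated had 0 in the fit as reported, 651 with no filter, 152 by DESeq2 and 3 in the fit of the libraries compared. CeO2 NPs had 2, 543, 44 and 0, and H2O2 against CeO2 NPs 4, 105, 21 and 120. shNRF2 against shControl had 576, 907 with no filter, 154 with only the libraries compared and 328 with no treatment term. Calls with only the libraries compared were 1427 in place of 2842 for shUTX against shControl, 2955 for 1940 in shUTX against shMLL1, 1991 for 1219 in shNRF2 against shMLL1 and 4351 for 2529 in shNRF2 against shUTX. CeO2 NPs had 0 calls with a filter at 5 CPM and by limma-voom. DESeq2 gave no adjusted p for CDKN2B-AS1 in H2O2 against untreated. The labels give no replicate numbers, and derivative and treatment already act as blocks in the fit. With 41 to 95 counts per library, depth limits CDKN2B-AS1 most of the 4 genes.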
